A study of Homo sapiens with 27 samples.

Results

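The glutathione S-transferase (GST) genes GSTP1, GSTM2, GSTM3, GSTM4, GSTK1, GSTO1, GSTT1, GSTA4, MGST1 and MGST2 were followed through the RNA-seq libraries of 3 human colorectal cancer (CRC) cell lines, HCT116, SW480 and DLD-1. The genes were chosen by their symbols, and they make up 10 of the 26255 genes listed in each library. These genes and the pathway lists below were chosen with earlier results of these data known, so the choice was not blind. Each line was sequenced as cells made resistant to fluorouracil (5-FU res), cells made resistant to oxaliplatin (OX res) and cells given neither drug (WT), with 3 libraries in each of the 9 groups and 27 in all. Resistant derivatives came from about 6 months of culture at non-lethal doses, which ran from 5 to 70 µM fluorouracil or from 5 to 35 µM oxaliplatin, and the genotype label of WT is negative control. All groups grew in low-glucose DMEM with serum, and nothing in the sources says that a derivative is a clone or that it was freed of drug before RNA was taken. Each line and drug has 1 such derivative. Whether the 3 libraries of each group stem from separate cultures is not stated, so p-values measure only the spread between libraries, which may be technical. The study's methods describe the selection of HCT116 and SW480 alone, and the DLD-1 libraries carry library names from a separate number range, so that line and library series cannot be told apart for DLD-1.

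GST enzymes join the thiol of glutathione to electrophilic compounds, among them products of lipid oxidation and several drugs, and the conjugates leave the cell through ABCC pumps. The cytosolic family is divided by sequence into classes that include pi (GSTP1), mu (GSTM2, GSTM3 and GSTM4), alpha (GSTA4), theta (GSTT1) and omega (GSTO1). GSTK1 belongs to a separate kappa class of mitochondria and peroxisomes, and MGST1 and MGST2 are membrane proteins of the MAPEG family. GSTP1 is the predominant GST of many carcinomas, colorectal ones included, and platinum compounds are among the drugs that react with glutathione.

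The values are TPM, transcript levels made from the deposited FPKM by scaling each library to the same sum, so that levels are scaled by transcript length and can be compared between genes. Pairs of libraries of a group correlated at 0.991 to 0.995 over all genes on the log2(TPM + 1) scale, and no pair was identical. The epithelial genes KRT8 and KRT18 were abundant in all 9 groups, whereas VIL1 averaged under 1 TPM in HCT116 and DLD-1 and KRT20 under 10 TPM in all groups. Summed over 5 fibroblast markers the level was 0.400 to 17.7 TPM per library, against 4251 to 19662 TPM for 7 epithelial markers. The epithelial adhesion gene EPCAM averaged 68.2 ± 2.55 TPM in HCT116 OX res and 392 ± 15.4 TPM in HCT116 WT, and 105 ± 4.29 TPM in SW480 5-FU res and 323 ± 21.2 TPM in SW480 WT (SD, n = 3 each); the part of such shifts in the results below was not tested. In bulk RNA, fewer cells with a transcript and less of it per cell cannot be told apart.

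In the human genome (GRCh37, GENCODE), GSTM4 (chromosome 1, 110198721 to 110208118, 8 exons) and GSTM2 (chromosome 1, 110210644 to 110252173, 8 exons) lie on the plus strand with 2525 bases between them. GSTM3 lies beyond them on the minus strand (chromosome 1, 110276554 to 110283660, 9 exons). GSTP1 is on chromosome 11 (67351213 to 67354127, 7 exons), GSTA4 on chromosome 6 (52842746 to 52860102, 7 exons), GSTT1 on chromosome 22 (24376133 to 24384680, 5 exons), GSTK1 on chromosome 7 (142941186 to 142967947, 8 exons), GSTO1 on chromosome 10 (105995114 to 106027217, 6 exons), MGST1 on chromosome 12 (16500076 to 16762193, 4 exons) and MGST2 on chromosome 4 (140586922 to 140661899, 5 exons). Sequence identity matters for the mu class. Of the 100-base windows of the main GSTM2 transcript, 37.0% occur unchanged in transcripts of GSTM1 or GSTM4, against 4.56% of the GSTM4 windows and 0 of those of the other 8 genes, so that short reads of GSTM2 are partly ambiguous.

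Promoters are shown for the 3 genes on which the results mainly turn. Each runs from 250 bases before to 50 bases after the transcription start (RefSeq, GRCh38.p14). By mean TPM, the neighbours GSTM4 and GSTM2 were above WT and GSTP1 below it in HCT116 OX res, SW480 OX res and DLD-1 5-FU res. In HCT116 5-FU res and SW480 5-FU res, GSTM4 was instead below WT together with GSTP1, and GSTM2 was above it. Whether the promoter matches have a part in these changes was not tested. Capitals mark matches, on both strands, to TGACNNNGC (the core of the antioxidant response element), TGACTCA (the AP-1 site), GGGCGG (the GC box) and TATAA. Overlapping matches are in 1 run of capitals.
GSTM4, chr1:109655849-109656148, plus strand: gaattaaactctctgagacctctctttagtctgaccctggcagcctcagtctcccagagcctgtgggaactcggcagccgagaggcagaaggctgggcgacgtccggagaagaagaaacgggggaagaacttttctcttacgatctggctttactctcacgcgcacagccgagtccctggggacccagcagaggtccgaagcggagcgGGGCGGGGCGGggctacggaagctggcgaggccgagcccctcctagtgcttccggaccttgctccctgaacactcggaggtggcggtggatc
GSTM2, chr1:109667807-109668106, plus strand: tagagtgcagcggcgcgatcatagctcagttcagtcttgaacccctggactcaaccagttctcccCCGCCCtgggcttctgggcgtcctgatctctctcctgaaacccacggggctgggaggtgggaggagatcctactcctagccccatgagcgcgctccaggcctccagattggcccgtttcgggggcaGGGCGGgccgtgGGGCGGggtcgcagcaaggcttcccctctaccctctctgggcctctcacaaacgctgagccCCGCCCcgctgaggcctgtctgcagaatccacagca
GSTP1, chr11:67583562-67583861, plus strand: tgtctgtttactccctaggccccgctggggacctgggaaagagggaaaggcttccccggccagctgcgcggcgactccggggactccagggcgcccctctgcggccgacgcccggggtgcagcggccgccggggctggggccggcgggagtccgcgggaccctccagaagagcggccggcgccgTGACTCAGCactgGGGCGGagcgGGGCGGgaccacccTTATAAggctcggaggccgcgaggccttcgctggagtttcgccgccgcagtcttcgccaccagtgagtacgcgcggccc

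GSTM4 held 2 GC boxes, which overlap at positions -42 and -37, and GSTM2 held 4, while neither window held TGACNNNGC, TGACTCA or TATAA. GSTP1 held the run TGACTCAGC at position -66, which matches both TGACNNNGC and TGACTCA, followed by 2 GC boxes at -53 and -43 and a TATAA on each strand. Of 35116 promoter windows of the same length, 13.3% held TGACNNNGC, 4.95% held TGACTCA, 45.0% held GGGCGG and 20.4% held TATAA. Promoter entries were matched for 8 of the 10 genes. TGACNNNGC was not particular to GSTP1 among them. It also occurred in GSTO1 (positions -226 and -161), in GSTA4 (-9) and in an MGST1 entry (30), but not in GSTM3 or GSTK1.

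GSTP1 was the most abundant of the 10 genes in each of the 9 groups. Across all 27 libraries its mean level was 888 TPM, which ranks it 138th of all genes. GSTO1 followed at 251 TPM and GSTK1 at 171 TPM. GSTM4, MGST1 and MGST2 averaged 83.9, 79.6 and 75.0 TPM, GSTT1 37.7 TPM and GSTM3 21.0 TPM, whereas GSTM2 and GSTA4 averaged 7.01 and 2.53 TPM. The highest group mean was 2.07-fold the lowest for GSTO1, 2.90-fold for GSTP1 and for GSTK1, and 3.42-fold for MGST2, against 19.5-fold for GSTA4, 23.4-fold for MGST1, 31.0-fold for GSTM2 and 32.7-fold for GSTM4. GSTT1 and GSTM3 were near 0 in whole lines.

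**Figure D1:**
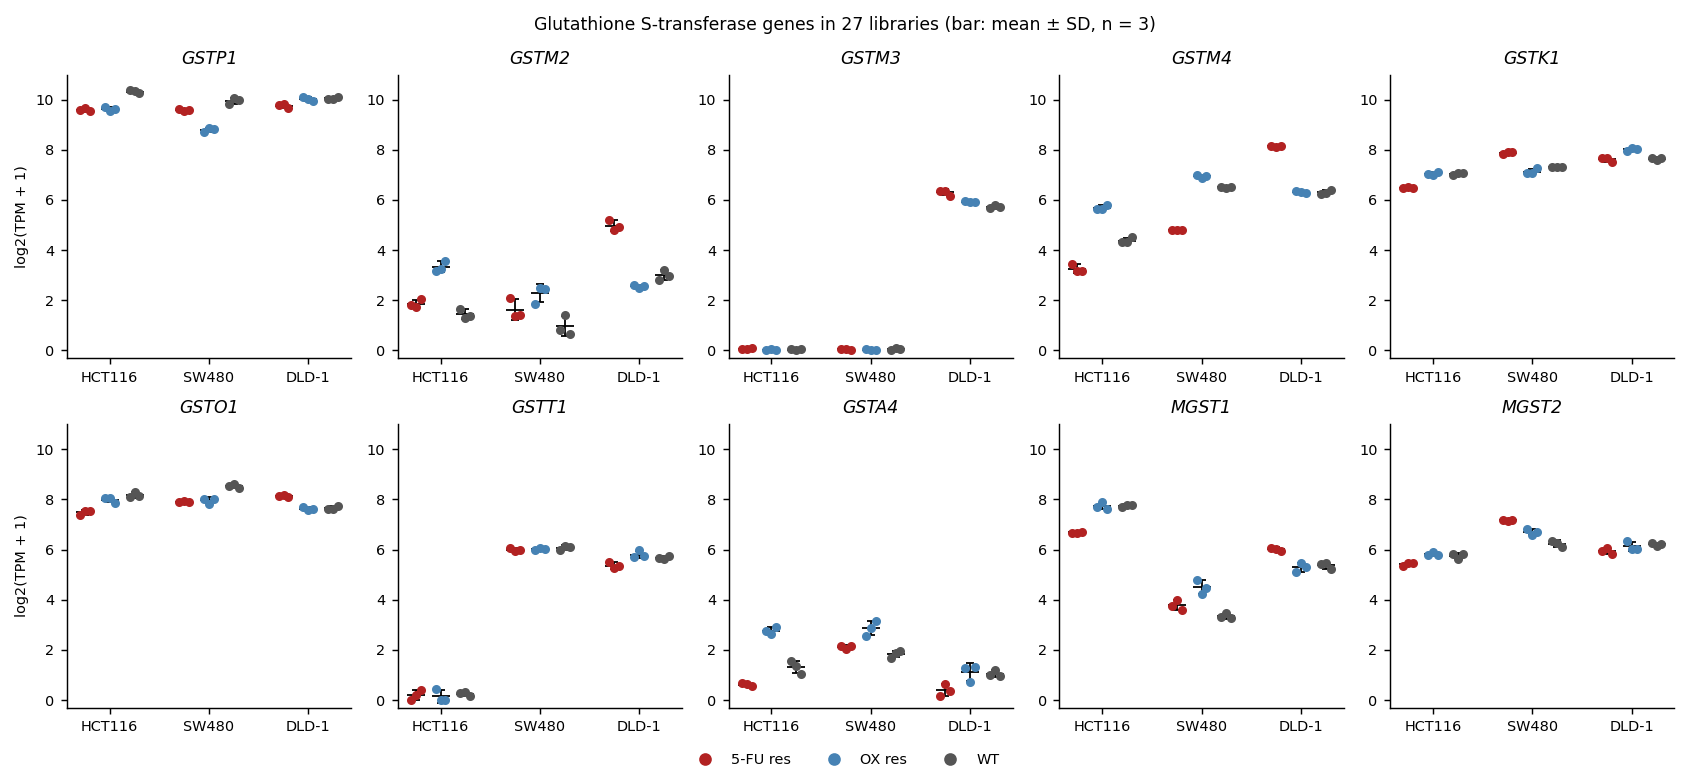
Level of each of the 10 genes in each library, as log2(TPM + 1), by line and by group from left to right (5-FU res, OX res, WT). Points are libraries and the bars are the mean ± SD of 3 libraries; GSTM3 lies near 0 in all 18 libraries of HCT116 and SW480 and GSTT1 in all 9 of HCT116, while GSTM4 of DLD-1 5-FU res stands above all other groups.

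The WT lines were compared first, with limma on log2(TPM + 1) and p-values adjusted by Benjamini-Hochberg over all genes tested, as in all comparisons below. GSTM3 was measurable in DLD-1 alone and GSTT1 in SW480 and DLD-1. The GSTM3 level was at 0.0290, 0 and 0.0263 TPM in HCT116 WT and 0, 0.0560 and 0.0301 TPM in SW480 WT, against 49.9, 54.7 and 50.9 TPM in DLD-1 WT. Low values fall on whole multiples of what appears to be 1 read per library, and taken this way the HCT116 and SW480 libraries of all groups held 0 to 2 reads of GSTM3 each. Fitted differences for such genes depend on the pseudocount, being -5.70 and -5.68 on the log2(TPM + 1) scale and -8.78 and -8.68 with a pseudocount of 0.1. GSTT1 was at 0.218, 0.243 and 0.117 TPM in HCT116 WT, against 61.5, 70.0 and 68.2 TPM in SW480 WT and 49.5, 48.9 and 52.8 TPM in DLD-1 WT. No HCT116 library of any group exceeded 0.359 TPM of GSTT1, and the steps again gave 0 to 2 reads.

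MGST1, a membrane enzyme that also reduces lipid peroxides, set HCT116 apart in the other direction. Its level was 206, 221 and 216 TPM in HCT116 WT, against 8.88, 10.0 and 8.64 TPM in SW480 WT and 42.1, 43.0 and 36.3 TPM in DLD-1 WT. The ranges of the 3 lines did not overlap, and HCT116 was higher by 4.41 ± 0.114 (SE, adjusted p = 4.44e-20) on the log2 scale than SW480 and by 2.38 ± 0.114 (SE, adjusted p = 4.70e-15) than DLD-1. GSTM4 was lower in HCT116 WT, at 18.9, 19.0 and 21.7 TPM, than in SW480 WT (-2.12, adjusted p = 4.64e-18) and DLD-1 WT (-1.92, adjusted p = 2.75e-17). GSTM2 was lower by 1.54 on the log2 scale in HCT116 WT and by 2.04 in SW480 WT than in DLD-1 WT (adjusted p = 3.78e-07 and 4.01e-09). GSTO1, by contrast, was highest in SW480 WT at 369.6 ± 16.8 TPM, followed by 289 ± 21.0 TPM in HCT116 WT and 202 ± 9.94 TPM in DLD-1 WT (SD, n = 3 each). GSTP1 was at 1279 ± 53.9 TPM in HCT116 WT, 992 ± 75.5 TPM in SW480 WT and 1057 ± 40.7 TPM in DLD-1 WT, and SW480 and DLD-1 overlapped (-0.094, adjusted p = 0.147). Without SW480 WT replicate 2 that difference passed (-0.14, adjusted p = 0.0426), and under median-of-ratios scaling its sign turned to 0.42 (adjusted p = 6.79e-05), as did that of GSTK1 (-0.34 with TPM, 0.17 with median-of-ratios scaling).

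At an adjusted p under 0.05, 9 of 10 genes differed between HCT116 WT and SW480 WT, 9 of 10 between HCT116 WT and DLD-1 WT and 8 of 10 between SW480 WT and DLD-1 WT. These counts are close to the share among all genes tested, which was 75.1%, 79.0% and 80.9% in the same order of pairs. The share that was higher in the first line, of all genes that passed, was 32.7% with TPM and 51.3% with median-of-ratios scaling for HCT116 against DLD-1 and 33.5% with TPM and 52.5% with median-of-ratios scaling for SW480 against DLD-1. With a log2 difference beyond 1 added, 3, 5 and 3 of 10 genes remained, against 25.1%, 34.5% and 35.9% of all genes. The higher GSTM2 of HCT116 WT over SW480 WT (0.49, adjusted p = 0.0354) rested on low levels, and its adjusted p was 0.14 without HCT116 WT replicate 1, 0.0507 without HCT116 WT replicate 3, 0.114 without SW480 WT replicate 1 and 0.175 without SW480 WT replicate 3. GSTA4 of HCT116 WT and DLD-1 WT did not pass (0.27, adjusted p = 0.132) but passed when HCT116 WT replicate 3 was left out (0.41, adjusted p = 0.0391) and under median-of-ratios scaling (0.55, adjusted p = 0.00381). MGST2 was lower in HCT116 WT than in DLD-1 WT (-0.45, adjusted p = 3.21e-05), which turned to 0.014 (adjusted p = 0.899) under that scaling. Between SW480 WT and DLD-1 WT it was at 0.035 (adjusted p = 0.715) with TPM and 0.54 (adjusted p = 8.65e-06) with that scaling. GSTP1 of HCT116 WT and DLD-1 WT (0.27, adjusted p = 1.94e-04) lost its call with quantile normalization (0.049, adjusted p = 0.391), and GSTT1 of SW480 WT and DLD-1 WT (0.39, adjusted p = 0.00216) with a pseudocount of 0.1 (0.40, adjusted p = 0.387).

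The 10 genes were summed, which leaves out other GST and MAPEG genes. Among these were MGST3 at 94.9 ± 0.882 TPM and GSTO2 at 78.8 ± 1.72 TPM in DLD-1 WT. Summed over the 10 genes, the level was 1197 ± 44.7 TPM in HCT116 5-FU res, 1510.4 ± 31.5 TPM in HCT116 OX res and 1989.9 ± 48.6 TPM in HCT116 WT (SD, n = 3 each). SW480 showed 1486 ± 21.1 TPM in 5-FU res, 1149.5 ± 31.7 TPM in OX res and 1763 ± 84.3 TPM in WT. The libraries of each derivative lay below all WT libraries of the same line in HCT116 and SW480. In DLD-1 the sums were 1893 ± 80.6, 1794 ± 60.3 and 1759.9 ± 55.6 TPM in 5-FU res, OX res and WT, and the ranges overlapped. GSTP1 made up 38.4% of the sum in SW480 OX res and 56.2% in SW480 WT, and 45.5% in DLD-1 5-FU res and 60.1% in DLD-1 WT. The 9 genes other than GSTP1 together reached 1032 ± 32.7 TPM in DLD-1 5-FU res and 703 ± 15.5 TPM in DLD-1 WT. In HCT116 these 9 genes summed to 423 ± 13.7 TPM in 5-FU res, 719 ± 27.1 TPM in OX res and 711 ± 25.6 TPM in WT. Without GSTP1 the sum of HCT116 OX res was thus not lower than that of WT. SW480 had 725 ± 1.75, 708 ± 40.4 and 771 ± 21.9 TPM in the same order. All sums are with TPM, and other scalings of them are not given.

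**Figure D2:**
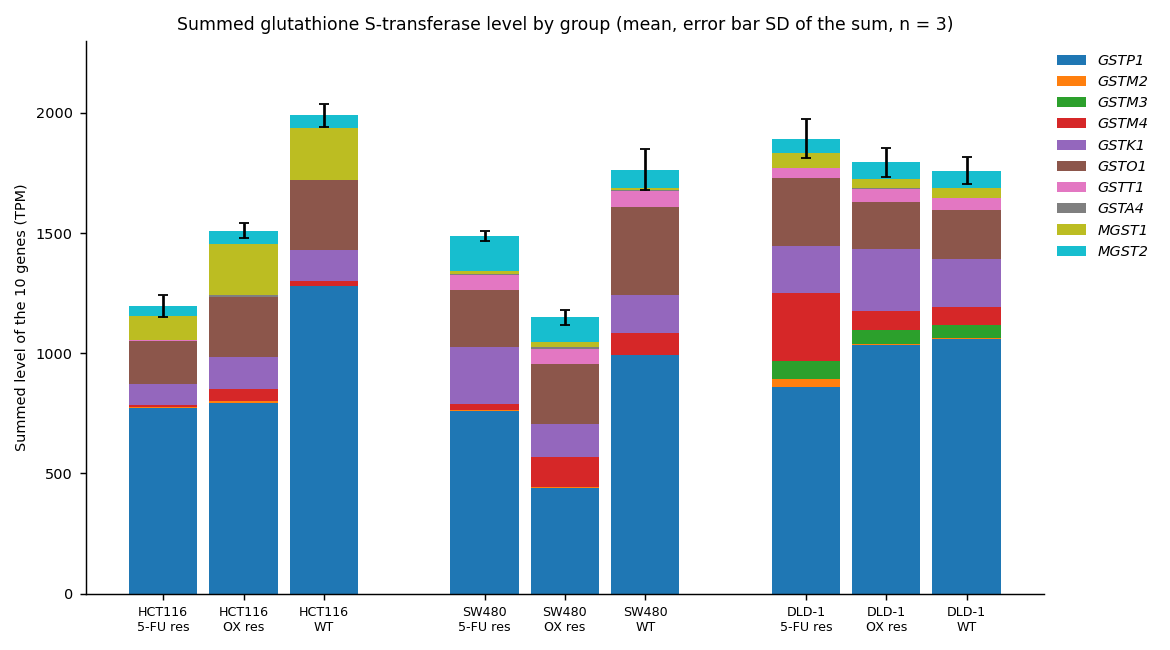
Summed level of the 10 genes in TPM by line and group, with each coloured segment the mean of 1 gene over 3 libraries and the error bar the SD of the sum. The GSTP1 segment is the largest in each bar, the bars of HCT116 and SW480 derivatives are shorter than those of their WT, and GSTM4 forms a visible segment of 281 TPM in DLD-1 5-FU res.

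To examine which GST genes changed with resistance, each derivative was compared with the WT of its line, and both derivatives of a line share those WT libraries. All 10 genes passed the filter on low values in DLD-1, 9 in SW480 (not GSTM3) and 8 in HCT116 (neither GSTM3 nor GSTT1). In 5-FU res of HCT116, 1 rose and 7 fell of 8 genes tested, where 47.3% and 27.5% of all genes did so, and in OX res of HCT116 3 rose and 2 fell of 8 genes tested, where 68.1% and 18.1% of all genes did so. In 5-FU res of SW480, 4 rose and 3 fell of 9 genes tested, where 61.7% and 15.6% of all genes did so, and in OX res of SW480 5 rose and 3 fell of 9 genes tested, where 57.4% and 14.5% of all genes did so. In 5-FU res of DLD-1, 5 rose and 4 fell of 10 genes tested, where 20.5% and 25.9% of all genes did so, and in OX res of DLD-1 2 rose and 1 fell of 10 genes tested, where 38.7% and 11.2% of all genes did so. Without regard to direction the share of all genes that passed was 74.7% with 5-FU and 86.2% with OX in HCT116, 77.3% and 71.8% in SW480, and 46.4% and 49.8% in DLD-1, so that a pass by itself does not set a gene apart.

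With a log2 fold change beyond 1 required as well, GSTM4 and MGST1 fell in 5-FU res of HCT116, where 3.82% of all genes fell that far. GSTM2, GSTM4 and GSTA4 rose in OX res of HCT116, where 28.5% of all genes rose that far. In SW480 5-FU res, GSTM4 fell (2.85% of all genes). In SW480 OX res, GSTM2, GSTA4 and MGST1 rose (13.7% of all genes) and GSTP1 fell (1.22%). All calls beyond 1 were made with TPM. With OX, median-of-ratios scaling put GSTK1 of HCT116 at -0.66 and GSTM4 of SW480 at -0.0081, both lower than with TPM. Whether the rises of these OX derivatives stay beyond 1 under that scaling is not given, here or in the passages on single genes below. GSTM2 and GSTM4 rose in DLD-1 5-FU res (2.12% of all genes). In DLD-1 OX res no GST gene changed that far (limma, 0 of 10, with 3 of 10 at an adjusted p under 0.05; 3.61% of all genes).

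Scaling moved the middle of all genes. With TPM the log2 change of the median gene was 0.18 with 5-FU and 0.60 with OX in HCT116, 0.44 and 0.36 in SW480, and -0.027 and 0.13 in DLD-1. The median of the GST genes tested was -0.69 and 0.032 in HCT116, 0.27 and 0.44 in SW480, and 0.23 and -0.0051 in DLD-1. It lay below that of all genes in HCT116 with both drugs, in SW480 with 5-FU and in DLD-1 with OX, and above it in SW480 with OX and in DLD-1 with 5-FU. Under median-of-ratios scaling, which centres the genes, the GST genes that rose and fell numbered 0 and 7 with 5-FU and 3 and 5 with OX in HCT116, 1 and 4 with 5-FU and 3 and 4 with OX in SW480, and 5 and 4 with 5-FU and 1 and 4 with OX in DLD-1. The share that rose, of all genes that passed, was 63.2% with TPM and 46.9% with median-of-ratios scaling in HCT116 5-FU res. For OX res of HCT116 it was 79.0% with TPM and 49.96% with median-of-ratios scaling. It was 79.8% with TPM and 49.0% with median-of-ratios scaling in SW480 5-FU res, and for OX res of SW480 79.9% with TPM and 47.6% with median-of-ratios scaling. In DLD-1 5-FU res it was 44.3% with TPM and 49.4% with median-of-ratios scaling, and in DLD-1 OX res 77.6% and 52.4%. The share of all genes tested that rose or fell under median-of-ratios scaling is not given here or below. The counts under that scaling therefore do not show whether the GST genes stand apart from other genes.

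**Figure D3:**
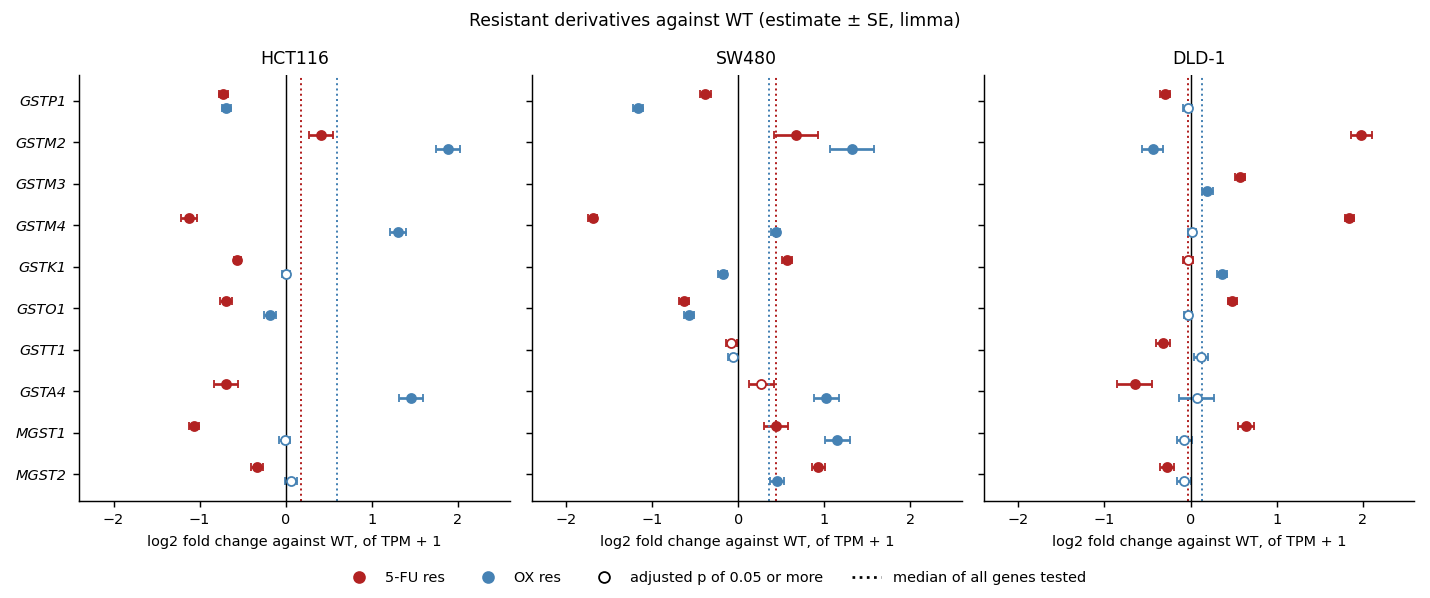
Log2 fold change of TPM + 1 against WT (estimate ± SE) of each gene tested, 5-FU res in red above OX res in blue, with open points at an adjusted p of 0.05 or more and dotted lines at the median of all genes tested. GSTM4 of 5-FU res lies at -1.12 in HCT116, -1.69 in SW480 and 1.84 in DLD-1, and GSTP1 lies left of the dotted line of its drug in all 6 comparisons.

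GSTM4, a mu-class enzyme, passed in 5 of 6 derivatives on the TPM scale. In HCT116 it was at 9.98, 7.96 and 7.90 TPM in 5-FU res and 48.2, 48.2 and 55.3 TPM in OX res, against 18.9, 19.0 and 21.7 TPM in WT. All 3 groups were apart, with 5-FU res below and OX res above WT. The changes were -1.12 ± 0.0964 (SE, adjusted p = 6.93e-07) for 5-FU res and 1.30 ± 0.0964 (SE, adjusted p = 8.38e-08) for OX res. In SW480 the levels were 26.99, 27.2 and 27.1 TPM in 5-FU res and 127, 116 and 122 TPM in OX res, against 90.1, 89.0 and 89.7 TPM in WT. The 3 libraries of 5-FU res lay within 0.2 TPM of each other and at less than all libraries of WT, a change of -1.69 ± 0.0513 (SE, adjusted p = 8.21e-10). The rise in SW480 OX res, 0.44 ± 0.0513 (SE, adjusted p = 2.55e-05), was close to the shift of the median gene there, and the value turned to -0.0081 (adjusted p = 0.915) under median-of-ratios scaling.

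DLD-1 showed the opposite sign with 5-FU. GSTM4 reached 281, 278 and 284 TPM in DLD-1 5-FU res, against 74.1, 76.1 and 82.8 TPM in DLD-1 WT, a change of 1.84 ± 0.0487 (SE, adjusted p = 1.17e-10). This was the highest level of GSTM4 among the 9 groups and was 3.62 times the WT mean. DLD-1 OX res stayed at 80.9, 78.8 and 76.1 TPM and overlapped WT (0.019, adjusted p = 0.781). In order of level the groups ran DLD-1 5-FU res, SW480 OX res, SW480 WT, DLD-1 OX res, DLD-1 WT, HCT116 OX res, SW480 5-FU res, HCT116 WT and HCT116 5-FU res, and only DLD-1 OX res and DLD-1 WT overlapped among neighbours.

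GSTM2, whose gene follows GSTM4 on the chromosome and whose product is the mu-class enzyme known for dopamine-derived quinones, was a low transcript throughout. It was at 35.9, 26.9 and 29.0 TPM in DLD-1 5-FU res, against 6.03, 8.26 and 6.70 TPM in DLD-1 WT (1.98 ± 0.120 SE, adjusted p = 1.02e-07). The groups were well apart. In DLD-1 OX res it was at 5.12, 4.55 and 4.88 TPM, lower than in WT (-0.44 ± 0.120 SE, adjusted p = 0.00932). In HCT116 it was at 7.91, 8.60 and 10.9 TPM in OX res, against 2.17, 1.45 and 1.61 TPM in WT, a rise of 1.88 ± 0.142 (SE, adjusted p = 1.04e-07) with no overlap. SW480 OX res had 2.62, 4.68 and 4.52 TPM, against 0.739, 1.65 and 0.576 TPM in SW480 WT (1.32 ± 0.260 SE, adjusted p = 8.99e-04).

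The smaller rises of GSTM2 with 5-FU were not stable. HCT116 5-FU res had 2.54, 2.28 and 3.08 TPM (0.41, adjusted p = 0.0208), and the adjusted p was 0.0819 without HCT116 WT replicate 2, 0.0605 without HCT116 WT replicate 3, 0.0855 without 5-FU res replicate 3 and 0.125 under median-of-ratios scaling. SW480 5-FU res had 3.31, 1.58 and 1.64 TPM, which overlapped WT (0.67, adjusted p = 0.0347). Without 5-FU res replicate 1 the value was 0.43 (adjusted p = 0.147), and the adjusted p was 0.0865 and 0.122 without SW480 WT replicate 1 or 3. Under median-of-ratios scaling it was 0.38 (adjusted p = 0.255).

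Because reads of GSTM2 and GSTM4 can be exchanged, the ratio of both was also examined. GSTM2 amounted to 9.67% to 12.8% of the GSTM4 level in DLD-1 5-FU res and 8.09% to 10.9% in DLD-1 WT, and these ranges overlapped. In HCT116 it was 25.5% to 39.1% in 5-FU res, 16.4% to 19.7% in OX res and 7.39% to 11.5% in WT, and in SW480 5.81% to 12.3% in 5-FU res, 2.06% to 4.04% in OX res and 0.642% to 1.85% in WT. In HCT116 and SW480 the ratio was higher in each derivative than in WT. GSTM1, which shares windows with both, was at no more than 0.761 TPM in any library. Of the 27 GSTM2 values, 10 fell within 0.15 of a whole number of reads, against 27 of 27 for GSTA4, and the part of shared reads in the GSTM2 values was not tested.

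**Figure D4:**
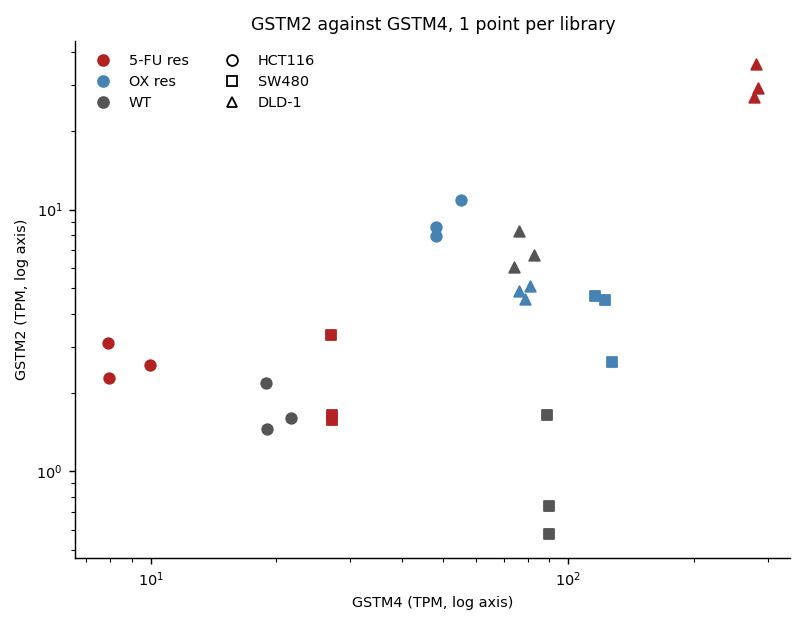
GSTM2 against GSTM4 in TPM on log axes, 1 point per library, with colour for the group and shape for the line. The 3 libraries of DLD-1 5-FU res are at the top right with 26.9 to 35.9 TPM of GSTM2, and SW480 WT lies lowest in GSTM2 at 0.576 to 1.65 TPM with GSTM4 of 89.0 to 90.1 TPM.

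GSTM3, the mu-class gene best known from testis and brain, was measurable in DLD-1 alone. It was at 81.3, 81.8 and 70.4 TPM in 5-FU res and 60.6, 58.6 and 58.9 TPM in OX res, against 49.9, 54.7 and 50.9 TPM in WT. The 3 groups did not overlap. The rise was 0.57 ± 0.0625 (SE, adjusted p = 1.40e-05) with 5-FU and 0.19 ± 0.0625 (SE, adjusted p = 0.0229) with OX, and the value for OX was 0.055 (adjusted p = 0.333) under median-of-ratios scaling. Its adjusted p was also 0.0864 without DLD-1 WT replicate 1, 0.0703 without DLD-1 WT replicate 3 and 0.0623 without OX res replicate 1. In DLD-1 5-FU res all 3 measured mu-class genes were thus above WT, although the GSTM2 values may hold reads of GSTM4.

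GSTP1, the pi-class enzyme that also binds the stress kinase JNK, was lower in 5 of 6 derivatives than in WT. HCT116 had 767, 819 and 737 TPM in 5-FU res and 827, 750.4 and 796 TPM in OX res, against 1331, 1282 and 1223 TPM in WT. Both derivatives lay below all WT libraries, by a log2 change of -0.72 ± 0.0525 (SE, adjusted p = 1.78e-07) for 5-FU res and -0.69 ± 0.0525 (SE, adjusted p = 1.06e-07) for OX res, and overlapped each other. SW480 had 783, 739 and 761 TPM in 5-FU res and 414, 462 and 448 TPM in OX res, against 911, 1060.0 and 1006 TPM in WT. The groups did not overlap, and the change was -0.38 ± 0.0596 (SE, adjusted p = 1.54e-04) for 5-FU res and -1.17 ± 0.0596 (SE, adjusted p = 8.52e-08) for OX res, so that GSTP1 of SW480 OX res was 0.445 of WT. In DLD-1 it was at 875, 901 and 807 TPM in 5-FU res and 1087, 1031 and 979 TPM in OX res, against 1035, 1033 and 1104 TPM in WT. 5-FU res was lower, with a log2 change of -0.30 ± 0.0540 (SE, adjusted p = 7.49e-04), while OX res overlapped WT (-0.035, adjusted p = 0.623, but -0.17 with an adjusted p of 0.00746 under median-of-ratios scaling). Even in SW480 OX res, the lowest group, GSTP1 was the most abundant of the 10 genes.

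GSTA4, the alpha-class enzyme with a preference for 4-hydroxynonenal from oxidised lipids, had the lowest mean level of the 10 genes, and its values correspond to few reads. In HCT116 it was at 0.590, 0.537 and 0.473 TPM in 5-FU res and 5.70, 5.28 and 6.48 TPM in OX res, against 1.91, 1.56 and 1.06 TPM in WT. As reads, these were 5, 5 and 4 in 5-FU res, 45, 43 and 48 in OX res and 20, 17 and 12 in WT, if the smallest step is 1 read. The groups were apart, with -0.70 ± 0.137 (SE, adjusted p = 6.05e-04) for 5-FU res and 1.45 ± 0.137 (SE, adjusted p = 7.69e-07) for OX res. SW480 had 3.45, 3.06 and 3.42 TPM in 5-FU res and 4.95, 6.35 and 7.81 TPM in OX res, against 2.23, 2.68 and 2.84 TPM in WT. OX res was higher by 1.03 ± 0.144 (SE, adjusted p = 9.02e-05), whereas 5-FU res did not pass (0.27, adjusted p = 0.111) and turned to -0.37 (adjusted p = 0.0478) under quantile normalization. DLD-1 had 0.129, 0.570 and 0.284 TPM in 5-FU res and 1.46, 0.633 and 1.53 TPM in OX res, against 0.975, 1.31 and 0.918 TPM in WT, or 1, 4 and 2 reads in 5-FU res, 10, 3 and 11 in OX res and 8, 9 and 7 in WT. The fall in 5-FU res (-0.65, adjusted p = 0.0204) had an adjusted p of 0.0806 without 5-FU res replicate 1 and 0.0556 without 5-FU res replicate 3.

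MGST1 fell in 1 derivative and rose in 3 on the TPM scale. In HCT116 it was at 101, 101 and 103 TPM in 5-FU res and 208, 235 and 196 TPM in OX res, against 206, 221 and 216 TPM in WT. All 3 libraries of 5-FU res lay below WT (-1.07 ± 0.0598 SE, adjusted p = 2.40e-08), and OX res overlapped WT (-0.013, adjusted p = 0.846, but -0.67 with an adjusted p of 2.39e-05 under median-of-ratios scaling). In SW480, where MGST1 is low, it was at 12.5, 15.0 and 11.2 TPM in 5-FU res and 26.4, 17.7 and 21.4 TPM in OX res, against 8.88, 10.0 and 8.64 TPM in WT. OX res was higher by 1.15 ± 0.145 (SE, adjusted p = 4.18e-05). The rise in 5-FU res (0.44, adjusted p = 0.0165) matched the median gene, with -0.026 (adjusted p = 0.887) under median-of-ratios scaling, and its adjusted p was 0.0528 without SW480 WT replicate 3 and 0.0725 without 5-FU res replicate 2. DLD-1 had 66.5, 64.5 and 60.0 TPM in 5-FU res and 33.7, 43.1 and 38.9 TPM in OX res, against 42.1, 43.0 and 36.3 TPM in WT, a rise of 0.64 ± 0.0884 (SE, adjusted p = 9.08e-05) in 5-FU res. DLD-1 OX res overlapped WT (-0.071, adjusted p = 0.537), and its value was -0.25 (adjusted p = 0.0357) under quantile normalization.

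MGST2, which also makes leukotriene C4, changed most in SW480 on the TPM scale. Its mean was 143 ± 2.78 TPM in 5-FU res and 103 ± 8.80 TPM in OX res, against 74.9 ± 6.72 TPM in WT (SD, n = 3 each). The groups did not overlap, and the rise was 0.93 ± 0.0765 (SE, adjusted p = 1.12e-06) for 5-FU res and 0.45 ± 0.0765 (SE, adjusted p = 3.31e-04) for OX res. Under median-of-ratios scaling the first kept its direction (0.43, adjusted p = 0.00107) and the second did not pass (0.0066, adjusted p = 0.951). In HCT116 5-FU res MGST2 fell (-0.33, adjusted p = 6.62e-04), and HCT116 OX res was at 55.5 ± 2.33 TPM, against 53.2 ± 4.62 TPM in HCT116 WT (0.060, adjusted p = 0.407, but -0.59 with an adjusted p of 4.61e-05 under median-of-ratios scaling). In DLD-1 5-FU res it fell (-0.27, adjusted p = 0.0186), with an adjusted p of 0.0619 without WT replicate 1 and 0.0774 without 5-FU res replicate 3. DLD-1 OX res was at -0.073 (adjusted p = 0.501), which passed under median-of-ratios scaling (-0.21, adjusted p = 0.0488).

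GSTO1, the omega-class enzyme with thioltransferase activity, had opposite signs in the lines with 5-FU. It averaged 179 ± 12.5 TPM in HCT116 5-FU res and 289 ± 21.0 TPM in HCT116 WT (-0.69 ± 0.0697 SE, adjusted p = 2.72e-06), and in SW480 it fell in both derivatives (-0.63 with 5-FU, adjusted p = 3.55e-06, and -0.57 with OX, adjusted p = 1.19e-05). In DLD-1 5-FU res it averaged 283 ± 8.29 TPM and in DLD-1 WT 202 ± 9.94 TPM, a rise of 0.49 ± 0.0494 (SE, adjusted p = 8.08e-06). The small fall in HCT116 OX res (-0.19, adjusted p = 0.0239) had an adjusted p of 0.112 without WT replicate 2 and 0.105 without OX res replicate 3. DLD-1 OX res overlapped WT (-0.029, adjusted p = 0.661, but -0.17 with an adjusted p of 0.0175 under median-of-ratios scaling). With quantile normalization that fall also passed (-0.13, adjusted p = 0.025), while the one in HCT116 OX res did not (-0.12, adjusted p = 0.154).

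GSTK1, the kappa-class enzyme of mitochondria and peroxisomes, averaged 234 ± 5.33 TPM in SW480 5-FU res and 158 ± 1.88 TPM in SW480 WT (0.57 ± 0.0552 SE, adjusted p = 3.95e-06). This rise was near the shift of the median gene, at 0.063 (adjusted p = 0.409) under median-of-ratios scaling. GSTK1 fell in HCT116 5-FU res to 88.6 ± 1.35 TPM, against 131 ± 2.79 TPM in HCT116 WT (-0.56 ± 0.0432 SE, adjusted p = 2.86e-07). In HCT116 OX res the TPM of GSTK1 matched WT (0.0035, adjusted p = 0.942), which under median-of-ratios scaling was a fall (-0.66, adjusted p = 8.51e-08). It rose in DLD-1 OX res (0.36 ± 0.0554 SE, adjusted p = 1.96e-04), was at -0.032 in DLD-1 5-FU res (adjusted p = 0.669), and fell in SW480 OX res (-0.18, adjusted p = 0.0126; 0.0536 without OX res replicate 1).

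GSTT1, a theta-class enzyme active on small halogenated compounds, did not pass in SW480, where it averaged 62.9 ± 2.83 TPM in 5-FU res, 63.8 ± 1.80 TPM in OX res and 66.6 ± 4.49 TPM in WT. The log2 changes were -0.080 and -0.059, and became -0.58 (adjusted p = 2.65e-04) and -0.50 (adjusted p = 8.06e-04) under median-of-ratios scaling. In DLD-1 it was lower in 5-FU res, at 44.5, 37.1 and 39.2 TPM, against 49.5, 48.9 and 52.8 TPM in WT (-0.32 ± 0.0825 SE, adjusted p = 0.00727). DLD-1 OX res, at 50.8, 61.9 and 52.1 TPM, overlapped WT. In HCT116 the libraries were at 0, 0.143 and 0.314 TPM in 5-FU res and 0.359, 0 and 0 TPM in OX res, or 0 to 2 reads.

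The derivatives of a line were also compared with each other. In HCT116, 7 of 8 genes were lower in 5-FU res than in OX res and 0 were higher, where 56.7% of all genes were lower and 20.4% higher. GSTM4 differed by -2.43 ± 0.0964 (SE, adjusted p = 4.93e-10), GSTA4 by -2.15 ± 0.137 (SE, adjusted p = 3.04e-08), GSTM2 by -1.47 ± 0.142 (SE, adjusted p = 1.28e-06) and MGST1 by -1.06 ± 0.0598 (SE, adjusted p = 1.05e-08), while GSTP1 did not pass (-0.031, adjusted p = 0.596). Under median-of-ratios scaling GSTP1 was higher in 5-FU res (0.37, adjusted p = 7.05e-04) and 5 genes were lower, with GSTO1 at -0.10 (adjusted p = 0.336) and MGST2 at -0.0033 (adjusted p = 0.975). The share that was higher, of all genes that passed, was 26.5% with TPM and 51.7% with median-of-ratios scaling. In SW480, 3 of 9 genes were higher and 4 lower in 5-FU res, where 34.3% and 27.3% of all genes were. GSTM4 was lower by a wide margin (-2.13 ± 0.0513 SE, adjusted p = 3.64e-10), and GSTP1 (0.79), GSTK1 (0.75) and MGST2 (0.48) were higher. The lower GSTM2 of SW480 5-FU res (-0.65, adjusted p = 0.0489) was at the threshold, and its adjusted p was 0.152, 0.147, 0.15, 0.138 and 0.0502 without 5-FU res replicate 2 or 3, OX res replicate 2 or 3, or WT replicate 1, and 0.0596 under median-of-ratios scaling. In DLD-1 that share was 29.1% with TPM and 49.0% with median-of-ratios scaling. There, 5 of 10 genes were higher in 5-FU res, where 18.3% of all genes were, and 4 were lower (44.6%). The higher genes were GSTM2 (2.42), GSTM4 (1.83), MGST1 (0.71), GSTO1 (0.51) and GSTM3 (0.38). MGST2 missed the threshold (-0.20, adjusted p = 0.0544), which it passed without 5-FU res replicate 2 (0.0251), OX res replicate 2 (0.0299) or OX res replicate 3 (0.0384). The lower GSTP1 of DLD-1 5-FU res (-0.26, adjusted p = 0.0011) was -0.10 (adjusted p = 0.0766) under median-of-ratios scaling.

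Whether the change against WT differed between the lines was tested as a line-by-drug term over all 27 libraries. It passed for 9 of 10 genes with 5-FU, where 84.8% of all genes passed, and for 8 of 10 with OX (84.1%). The widest gap among the 10 genes was that of GSTM4 with 5-FU, where the lines differed by up to 3.53 on the log2 scale (adjusted p = 1.91e-18), between the fall in SW480 and the rise in DLD-1. MGST1 differed by up to 1.71 (adjusted p = 2.09e-09) and GSTM2 by up to 1.57 (adjusted p = 6.96e-05) with 5-FU. With OX the widest gap was that of GSTM2, at 2.32 (adjusted p = 4.81e-07), between the rise in HCT116 and the fall in DLD-1. GSTT1 did not pass with either drug (adjusted p = 0.209 with 5-FU and 0.353 with OX), but with the deposited FPKM it passed with both (gaps of 0.46 (adjusted p = 0.0128) and 0.46 (adjusted p = 0.00822)) and with median-of-ratios scaling for OX (0.46, adjusted p = 0.0414). GSTM3 did not pass with OX (adjusted p = 0.0717, but 0.0461 without DLD-1 WT replicate 2 and 0.0478 without DLD-1 5-FU res replicate 3). With 5-FU, the gap of GSTP1 was 0.077 (adjusted p = 0.538) and that of GSTA4 0.63 (adjusted p = 0.0629) under quantile normalization, and that of GSTM3 was 0.59 (adjusted p = 0.175) with a pseudocount of 0.1.

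For each gene, the 2 genes with the most similar profile of log2(TPM + 1) over the 27 libraries were listed, as a description only, since libraries of a group and line are not independent points. For GSTM4 these were EIF5A2 (r = 0.971) and WFS1 (r = 0.957), and for GSTM2 XDH (r = 0.922) and SYVN1 (r = 0.918), while GSTM2 and GSTM4 correlated at 0.593. GSTP1 was closest to APRT (r = 0.909) and SLC25A33 (r = 0.902), GSTA4 to CSTF1 (r = 0.939) and CTSA (r = 0.934), MGST1 to CUTC (r = 0.966) and NR4A2 (r = 0.960), and MGST2 to GPR176 (r = 0.960) and UBE2A (r = 0.953). GSTK1 was closest to DOK4 (r = 0.938) and PSMD9 (r = 0.935), and GSTO1, with the lowest values, to GEMIN7 (r = 0.846) and PFDN4 (r = 0.834). The high values of GSTM3 (ZFP57 (r = 0.999) and CXCL5 (r = 0.999)) and GSTT1 (CBR1 (r = 0.997) and BATF (r = 0.995)) are set by the lines in which these members are near 0.

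The genes around the GST enzymes in the glutathione pathway were taken from 6 lists, and each list is given by how many of its tested genes rose or fell at an adjusted p under 0.05, with the median log2 fold change. The counts and medians of all 6 lists were made with TPM. They are to be read beside the shares of all genes and the medians of all genes given above. Of 12 genes of glutathione synthesis and recycling, all passed the filter. In HCT116, 3 rose and 8 fell of 12 in 5-FU res (median -0.41) and 8 rose and 4 fell of 12 in OX res (median 0.77). In SW480, 6 rose and 6 fell of 12 in 5-FU res (median 0.084) and 7 rose and 3 fell of 12 in OX res (median 0.20). In DLD-1, 9 rose and 1 fell of 12 in 5-FU res (median 0.33) and 6 rose and 2 fell of 12 in OX res (median 0.15). SLC7A11, the cystine importer, averaged 4.47 ± 0.465 TPM in 5-FU res and 38.5 ± 5.47 TPM in OX res of HCT116, against 4.54 ± 0.317 TPM in WT. In SW480 it averaged 1.71 ± 0.198 TPM in 5-FU res and 12.3 ± 1.02 TPM in OX res, against 0.568 ± 0.0621 TPM in WT, and in DLD-1 47.5 ± 3.30 TPM in 5-FU res and 16.4 ± 0.585 TPM in OX res, against 20.7 ± 1.52 TPM in WT (SD, n = 3 each). It thus rose in 4 derivatives, fell in DLD-1 OX res (-0.32, adjusted p = 0.00292) and did not pass in HCT116 5-FU res (-0.019, adjusted p = 0.88). CHAC1, which degrades glutathione, led the list in HCT116 OX res (3.36 ± 0.0949, adjusted p = 3.08e-11) and SW480 5-FU res (1.56 ± 0.143, adjusted p = 2.50e-06), and SLC3A2, the partner of SLC7A11 in the importer, in HCT116 5-FU res with a fall (-1.18 ± 0.0444, adjusted p = 1.17e-09). The largest change in DLD-1 OX res was that of GCLM, the regulatory subunit of the first synthetic enzyme (0.50 ± 0.0539, adjusted p = 1.41e-05).

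The NRF2 axis, the transcription factor NFE2L2 with its regulators and common targets, was measured with 11 genes. In HCT116, 6 rose and 5 fell of 11 in 5-FU res (median 0.27) and 9 rose and 2 fell of 11 in OX res (median 1.15). In SW480, 7 rose and 2 fell of 11 in 5-FU res (median 0.68) and 9 rose and 0 fell of 11 in OX res (median 0.62). In DLD-1, 7 rose and 1 fell of 11 in 5-FU res (median 0.23) and 7 rose and 2 fell of 11 in OX res (median 0.23). The quinone reductase NQO1 was the leading gene in DLD-1 5-FU res (1.23 ± 0.0451, adjusted p = 1.85e-09) and DLD-1 OX res (0.76 ± 0.0451, adjusted p = 9.49e-08), and ranked 3 by size in HCT116 OX res (1.47 ± 0.0444, adjusted p = 5.10e-11) and SW480 OX res (1.44 ± 0.0459, adjusted p = 4.45e-09). The haem oxygenase HMOX1 led in SW480 OX res (1.86 ± 0.103, adjusted p = 1.51e-07) and the small MAF protein MAFF in HCT116 OX res (1.66 ± 0.0681, adjusted p = 5.51e-10) and SW480 5-FU res (0.98 ± 0.0740, adjusted p = 5.96e-07). In HCT116 5-FU res the leading gene was BACH1, a repressor of NRF2 targets (1.45 ± 0.0991, adjusted p = 1.09e-07). NQO1 and SRXN1 were among the 5 genes that fell there. NQO1 averaged 306 ± 14.5 TPM in HCT116 5-FU res and 362 ± 10.8 TPM in HCT116 WT, and SRXN1 89.0 ± 2.23 and 108 ± 3.25 TPM (SD, n = 3 each).

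Conjugate export and the mercapturate pathway had 9 of 14 genes tested in HCT116 and 11 in SW480 and in DLD-1. In HCT116, 7 rose and 2 fell of 9 in 5-FU res (median 0.59) and 6 rose and 1 fell of 9 in OX res (median 0.36). In SW480, 9 rose and 1 fell of 11 in 5-FU res (median 0.54) and 8 rose and 0 fell of 11 in OX res (median 0.43). The share of all genes that rose was 47.3% and 68.1% in HCT116 and 61.7% and 57.4% in SW480, with 5-FU and OX in turn. In DLD-1, 5 rose and 5 fell of 11 in 5-FU res (median 0.021) and 4 rose and 1 fell of 11 in OX res (median 0.051). The pump ABCC3 led in HCT116 5-FU res (1.76 ± 0.0878, adjusted p = 1.02e-08), HCT116 OX res (2.69 ± 0.0878, adjusted p = 8.96e-11) and OX res of SW480 (1.53 ± 0.0722, adjusted p = 5.10e-08), and the pump ABCC2 fell in HCT116 5-FU res (-0.84 ± 0.0879, adjusted p = 3.46e-06) and HCT116 OX res (-1.40 ± 0.0879, adjusted p = 2.05e-08). Gamma-glutamyl transferase genes, whose products cleave glutathione and its conjugates outside the cell, led elsewhere, with GGT5 in SW480 5-FU res (2.47 ± 0.136, adjusted p = 5.33e-08), GGT6 with a fall in DLD-1 5-FU res (-1.59 ± 0.153, adjusted p = 5.11e-06) and GGT1 with a fall in DLD-1 OX res (-0.86 ± 0.0698, adjusted p = 1.38e-06).

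Among the 17 other GST and MAPEG genes, 8 were tested in HCT116 and in DLD-1 and 9 in SW480. In HCT116, 1 rose and 4 fell of 8 in 5-FU res (median -0.25) and 3 rose and 3 fell of 8 in OX res (median 0.18). In SW480, 4 rose and 3 fell of 9 in 5-FU res (median 0.18) and 2 rose and 1 fell of 9 in OX res (median 0.11). In DLD-1, 0 rose and 2 fell of 8 in 5-FU res (median -0.075) and 3 rose and 2 fell of 8 in OX res (median 0.13). The largest changes were a fall of GSTZ1, the zeta-class enzyme of tyrosine breakdown, in HCT116 5-FU res (-0.88 ± 0.0740, adjusted p = 6.04e-07), a rise of the prostaglandin E synthase PTGES in SW480 5-FU res (1.20 ± 0.105, adjusted p = 1.78e-06) and DLD-1 OX res (0.53 ± 0.0699, adjusted p = 6.39e-05), and a rise of ALOX5AP in SW480 OX res (1.01 ± 0.137, adjusted p = 6.93e-05). GSTT2B led in HCT116 OX res (1.04 ± 0.182, adjusted p = 1.78e-04), and its near-identical copy GSTT2 makes that value uncertain. In DLD-1 5-FU res GSTCD fell (-0.26 ± 0.0705, adjusted p = 0.00872).

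For the 10 genes of glutathione peroxidases and glyoxalases the counts were as follows. In HCT116, 2 rose and 3 fell of 7 in 5-FU res (median -0.030) and 4 rose and 2 fell of 7 in OX res (median 0.12). In SW480, 5 rose and 2 fell of 10 in 5-FU res (median 0.34) and 3 rose and 3 fell of 10 in OX res (median 0.054). In DLD-1, 5 rose and 3 fell of 9 in 5-FU res (median 0.21) and 3 rose and 3 fell of 9 in OX res (median -0.029). The peroxidase GPX8 of the endoplasmic reticulum led in HCT116 5-FU res with a fall (-0.33 ± 0.0635, adjusted p = 5.23e-04), in HCT116 OX res (0.94 ± 0.0635, adjusted p = 3.81e-08) and SW480 OX res (0.98 ± 0.0981, adjusted p = 8.75e-06) with a rise, and in DLD-1 OX res with a fall (-0.79 ± 0.0701, adjusted p = 2.82e-06). ESD, which hydrolyses S-formylglutathione, fell in SW480 5-FU res (-1.62 ± 0.0647, adjusted p = 5.57e-09) and rose in DLD-1 5-FU res (1.05 ± 0.0776, adjusted p = 5.29e-07). The last list held 6 genes of the stress kinase route around JNK, which GSTP1 is known to bind. In HCT116, 3 rose and 0 fell of 6 in 5-FU res (median 0.12) and 6 rose and 0 fell of 6 in OX res (median 0.78). In SW480, 5 rose and 0 fell of 6 in 5-FU res (median 0.55) and 4 rose and 0 fell of 6 in OX res (median 0.52). In DLD-1, 3 rose and 3 fell of 6 in 5-FU res (median -0.0077) and 2 rose and 0 fell of 6 in OX res (median 0.12). The leading genes were MAP3K5 (ASK1) in HCT116 5-FU res (1.04 ± 0.0942, adjusted p = 1.09e-06), SW480 OX res (0.76 ± 0.117, adjusted p = 1.72e-04) and, with a fall, DLD-1 5-FU res (-1.14 ± 0.0625, adjusted p = 4.61e-08), JUN in HCT116 OX res (1.89 ± 0.0588, adjusted p = 6.21e-11), MAPK8 (JNK1) in SW480 5-FU res (0.85 ± 0.111, adjusted p = 3.79e-05) and MAPK9 (JNK2) in DLD-1 OX res (0.29 ± 0.0594, adjusted p = 0.00161).

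**Figure D5:**
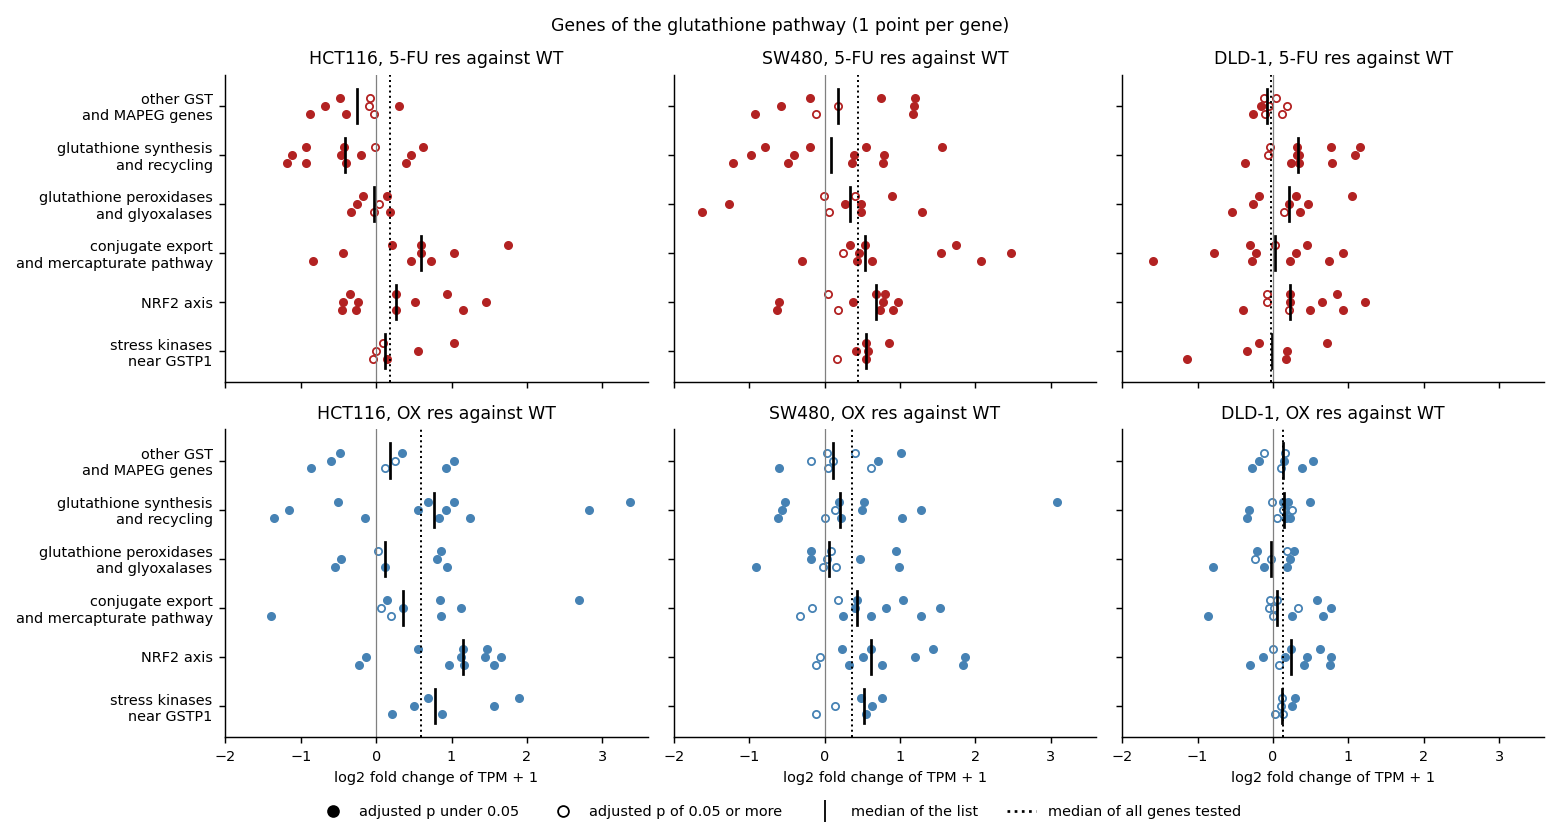
Log2 fold change against WT of each gene of the 6 pathway lists, 1 point per gene, filled where the adjusted p was under 0.05, with the list median as a bar and the median of all genes tested as a dotted line. In HCT116 OX res the bar of the NRF2 axis is at 1.15 and the dotted line at 0.60, and in DLD-1 OX res the 6 bars lie between -0.029 and 0.23.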

How the data were processed

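RNA of 27 cell line samples was made into stranded mRNA libraries and read as single reads on a DNBSEQ-G400. Reads were aligned by the authors to hg19 with TopHat2 2.1.1 (Bowtie2 2.2.8, SAMtools 0.1.18). They deposited FPKM for each gene symbol, which the methods credit to Cufflinks and the processing notes to Cuffdiff 2.2.1. No read totals were used. The step of 1 read, found from low genes, varied up to 1.57 times between libraries. Since 18 genes with a median above 50 TPM are listed at 0 in some library, a 0 is only a listed value. Each library's FPKM were divided by their sum (451767 to 804635) to give TPM. With limma 3.58.1 (R 4.3.3, eBayes with trend), log2(TPM + 1), which understates changes of low genes, was fitted per line (14010 genes in HCT116, 14039 in SW480, 13467 in DLD-1 reaching 1 TPM in 3 of 9 libraries). WT lines and the line-by-drug F test used all libraries together (15801 genes). P-values were adjusted by Benjamini-Hochberg over the whole table. The alternatives changed the pseudocount (0.1), the filter (none, or a mean of 5 TPM), the scaling (deposited FPKM, quantile, median-of-ratios) or the trend term, added a replicate block, restricted the fit to the compared groups, removed a length trend (0.3 lowess span, values only) or left out each library. All 10 genes are named, and list genes come from the 3 largest changes per comparison. Members and lists were chosen with earlier results of these data known. Positions are from GENCODE 44 mapped to GRCh37. Python 3.11.15 with pandas 2.3.3 and matplotlib 3.10.9 was used, and the fits were tested on simulated data.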

Additional observations from a re-analysis of the deposited data

Results flagged for a closer look

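The change against WT differed between the 3 lines, by the line-by-drug F test of limma, for 9 of the 10 genes with 5-FU and for 8 with OX, where 84.8% and 84.1% of all genes passed. With 5-FU the largest difference of log2 fold changes between any pair of lines was as follows: GSTP1 by 0.43 (adjusted p = 1.43e-04), GSTM2 by 1.57 (adjusted p = 6.96e-05), GSTM3 by 0.58 (adjusted p = 7.93e-06), GSTM4 by 3.53 (adjusted p = 1.91e-18), GSTK1 by 1.13 (adjusted p = 1.16e-11), GSTO1 by 1.17 (adjusted p = 5.88e-11), GSTA4 by 0.97 (adjusted p = 6.52e-04), MGST1 by 1.71 (adjusted p = 2.09e-09), MGST2 by 1.26 (adjusted p = 1.06e-09). The lines differed in sign, for example, for GSTM4 (-1.12 in HCT116, -1.69 in SW480 and 1.84 in DLD-1), GSTO1 (-0.69 in HCT116, -0.63 in SW480 and 0.49 in DLD-1) and MGST1 (-1.07 in HCT116, 0.44 in SW480 and 0.64 in DLD-1, where SW480 turned to -0.026 under median-of-ratios scaling).

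With OX the largest differences were as follows: GSTP1 by 1.13 (adjusted p = 1.45e-10), GSTM2 by 2.32 (adjusted p = 4.81e-07), GSTM4 by 1.29 (adjusted p = 2.14e-10), GSTK1 by 0.54 (adjusted p = 1.31e-06), GSTO1 by 0.54 (adjusted p = 3.52e-05), GSTA4 by 1.38 (adjusted p = 3.06e-05), MGST1 by 1.22 (adjusted p = 2.93e-07), MGST2 by 0.52 (adjusted p = 8.40e-04). GSTM2 had opposite signs (1.88 in HCT116, 1.32 in SW480 and -0.44 in DLD-1), and the changes of GSTP1 were -0.69 in HCT116, -1.17 in SW480 and -0.035 in DLD-1. With 5-FU the difference did not pass under quantile normalization for GSTP1 (0.077, adjusted p = 0.538) and GSTA4 (0.63, adjusted p = 0.0629), nor with a pseudocount of 0.1 for GSTM3 (0.59, adjusted p = 0.175). GSTM3 is near 0 in HCT116 and SW480, so its difference with 5-FU is that between DLD-1 and lines without a measurable level. Line and library series cannot be told apart for DLD-1, and which of them goes with these differences was not tested.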

How the results depend on the processing

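Of 131 values of a gene in a comparison, 84 kept their direction and their side of the threshold under all alternatives, as far as these were checked. A change of sign under at least 1 alternative was found for 20, of which 9 passed the threshold on at least 1 side of the change. With the length trend removed, only the sign of values that had passed was checked, here and in the list below, and not the threshold. The line-by-drug values are gaps without a sign, so only their threshold was checked. Changes of sign with all libraries were: GSTK1 in HCT116 OX res vs WT (0.0035 with TPM, -0.56 with FPKM, -0.11 with quantile, -0.66 with median-of-ratios); MGST2 in HCT116 OX res vs WT (0.060 with TPM, -0.49 with FPKM, -0.26 with quantile, -0.59 with median-of-ratios); GSTP1 in HCT116 5-FU res vs OX res (-0.031 with TPM, 0.32 with FPKM, 0.13 with quantile, 0.37 with median-of-ratios); GSTA4 in SW480 5-FU res vs WT (0.27 with TPM, -0.062 with FPKM, -0.37 with quantile, -0.11 with median-of-ratios); MGST1 in SW480 5-FU res vs WT (0.44 with TPM, -0.13 with quantile, -0.026 with median-of-ratios); GSTM4 in SW480 OX res vs WT (0.44 with TPM, -0.0081 with median-of-ratios); GSTP1 in DLD-1 OX res vs WT (-0.035 with TPM, 0.0083 with quantile); GSTM4 in DLD-1 OX res vs WT (0.019 with TPM, -0.12 with FPKM, -0.13 with quantile, -0.12 with median-of-ratios); GSTT1 in DLD-1 OX res vs WT (0.12 with TPM, -0.023 with FPKM, -0.049 with quantile, -0.020 with median-of-ratios); GSTA4 in DLD-1 OX res vs WT (0.071 with TPM, -0.012 with quantile); GSTM3 in WT HCT116 vs WT SW480 (-0.014 with TPM, 0.015 with the replicate block); MGST2 in WT HCT116 vs WT DLD-1 (-0.45 with TPM, 0.019 with FPKM, 0.014 with median-of-ratios); GSTP1 in WT SW480 vs WT DLD-1 (-0.094 with TPM, 0.43 with FPKM, 0.42 with median-of-ratios); GSTK1 in WT SW480 vs WT DLD-1 (-0.34 with TPM, 0.18 with FPKM, 0.17 with median-of-ratios); MGST2 in WT SW480 vs WT DLD-1 (0.035 with TPM, -0.091 with the replicate block). Their cause was not tested. Leaving out a library moved the call of 34 of 2070 refitted values and changed the sign of 18, none of which passed before or after (0 of 18). The ranges of these 12 results over the libraries left out were: GSTK1 in HCT116 OX res vs WT -0.025 to 0.028; MGST1 in HCT116 OX res vs WT -0.084 to 0.045; MGST2 in HCT116 OX res vs WT -0.013 to 0.10; GSTP1 in HCT116 5-FU res vs OX res -0.073 to 0.0034; GSTT1 in SW480 5-FU res vs OX res -0.054 to 0.0099; GSTK1 in DLD-1 5-FU res vs WT -0.065 to 0.022; GSTP1 in DLD-1 OX res vs WT -0.073 to 0.0024; GSTM4 in DLD-1 OX res vs WT -0.014 to 0.065; GSTO1 in DLD-1 OX res vs WT -0.062 to 0.012; MGST1 in DLD-1 OX res vs WT -0.15 to 0.020; GSTM3 in WT HCT116 vs WT SW480 -0.034 to 0.0049; MGST2 in WT SW480 vs WT DLD-1 -0.021 to 0.11. The number of GST genes that passed in HCT116 OX res against WT was 5, but 8 with FPKM as deposited, 8 with median-of-ratios scaling and 3 with a mean TPM of 5 or more, where fewer genes are tested. In DLD-1 OX res against WT it was 3, but 5 with each of FPKM as deposited, quantile normalization and median-of-ratios scaling. With TPM, 86.2% of all genes passed in HCT116 OX res and 49.8% in DLD-1 OX res. The shares of all genes under the alternatives are not given here, so these counts do not set the GST genes apart. Replicate numbers showed no common pairing of the libraries: over 27 pairs the correlation of deviations ran from -0.16 to 0.16 and a library was closest to its own number in 10. In HCT116 OX res vs WT each library was closest to its own number (0.075, 0.16 and 0.15), and in DLD-1 OX res vs WT none was. With 3 libraries per group this check cannot settle whether libraries are paired within a line. With the replicate number as a block the count passing was 6 against 7 in SW480 5-FU res vs OX res (GSTM2, adjusted p = 0.0645) and 10 against 9 in DLD-1 5-FU res vs OX res (MGST2, adjusted p = 0.0449), and the block changed no other call of a GST gene. Removing the trend on transcript length reversed no value that had passed. GSTM3 in HCT116 and SW480 and GSTT1 in HCT116, at 0 to 2 reads per library, could not be compared between derivatives and WT.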
